A study of Mus musculus with 6 samples.

Results

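The amino acid transporter genes are the protein-coding genes of the mouse table whose symbols place them in the solute carrier families Slc1, Slc3, Slc7, Slc36, Slc38 and Slc43. The symbol rule found 43 of the 55573 genes in the table. It used no expression value. One of the 43, Slc7a6os, carries the symbol of a neighbour and is no transporter; its values are given but it is left out of sums over transporters. The labels call the cells megakaryocytes, which shed platelets into the blood, and the sample titles add BM and the surface protein CD41. There were 3 wild-type (WT) and 3 Abcc4-/- samples. Abcc4 encodes an export pump for cyclic nucleotides and thiopurine drugs, and no treatment is listed for either genotype. The strain, age, sex, deleted exons and manner of cell selection are not stated in the labels. The design text counts 3 mice per genotype, and the labels do not tie a library to an animal.

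Amino acids are charged or polar and enter cells through carriers. Slc3a2 encodes the CD98 heavy chain, a membrane glycoprotein that brings several Slc7 light chains to the cell surface, where the light chain carries the amino acid. It is also known to bind integrin beta subunits. Slc1a5 and the Slc38 carriers bring in glutamine and other neutral amino acids, Slc7a1 brings in arginine and lysine, and Slc7a11 exchanges cystine for glutamate to feed glutathione synthesis. Slc38a9 reports lysosomal arginine to the growth kinase mTORC1. Several of these genes, Slc7a11 and Slc3a2 among them, are known targets of the stress-induced transcription factor ATF4.

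The libraries held 50440239 to 55123512 counts in WT and 67009925 to 99294493 in Abcc4-/-, so every Abcc4-/- library was the deeper. Abcc4 itself averaged 73.9 ± 1.96 CPM (SD, n = 3; counts scaled to library size, written CPM) in WT against 61.0 ± 1.13 in the Abcc4-/- libraries. Those whole-gene values do not check the genotype, since the deleted part is not known here. Megakaryocyte markers were lower and neutrophil markers higher in Abcc4-/-. Of 18 megakaryocyte markers, 13 passed as lower and 1 as higher, and their summed level was 880.3 to 1255 CPM in WT and 325 to 391 CPM in Abcc4-/-. Of 15 neutrophil markers, 11 passed as higher and 1 as lower, and their sums were 24138 to 31214 and 42507 to 45005 CPM. The 10 B cell markers summed to 519.6 to 749 and 1027 to 1139 CPM, with 7 higher and 0 lower. Eosinophil markers (7) summed to 812 to 874 and 424 to 623 CPM, with 0 higher and 3 lower. For the 11 T and NK cell markers (8 higher, 1 lower) the sums were 136 to 153 and 145 to 162 CPM, and for the 8 mast cell and basophil markers (0 higher, 2 lower) 2254 to 2752 and 1892 to 2308 CPM. The 13 monocyte and macrophage markers (0 higher, 3 lower) summed to 10709 to 12443 and 10747 to 12311 CPM, and the 11 of 12 erythroid markers found (4 higher, 0 lower) to 707 to 786 and 685 to 820.2 CPM. The sums of these last 4 lists overlapped between the genotypes. Even so, 81.8% of the T and NK cell markers passed. Their median log2 fold change was 0.92, beside 0.74 for the neutrophil and 0.68 for the B cell markers. Over all genes tested, 8.61% passed as higher and 8.68% as lower. No marker found was at 0 in all 6 libraries, and the neutrophil sum exceeded the megakaryocyte sum in every library. In whole samples, fewer cells of a type and less RNA per cell cannot be told apart, and the part of these cell types in the transporter results was not tested.

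Level per transcript length was read from TPM, which scales each gene by its length within a library. The 42 transporter genes together stood at 663, 662 and 746 TPM in WT replicates 1 to 3 and at 572, 597 and 621 TPM in Abcc4-/- replicates 1 to 3. The groups did not overlap, and the Abcc4-/- mean was 0.865 of the WT mean. The families differed. The Slc3 mean went from 115 TPM in WT to 70.3 TPM in Abcc4-/- (ratio 0.612), while the Slc1 mean went from 93.3 to 106 TPM (1.14). The ratios were 0.792 for Slc7, 0.857 for Slc36, 0.882 for Slc38 and 0.932 for Slc43. On this scale the median of all tested genes also lay lower, at -0.06 on log2(TPM + 1). A set of 6 genes, Slc1a5, Slc3a2, Slc38a2, Slc38a10, Slc43a3 and Slc38a1, held 68.1% to 69.8% of the transporter TPM in every library. The order at the top differed between the genotypes. In each WT library Slc3a2 was the most abundant (109 to 125 TPM) and Slc1a5 lay below it (84.5 to 97.8 TPM). In each Abcc4-/- library Slc1a5 led (104 to 107 TPM), and Slc3a2 stood at 69.0 to 72.5 TPM.

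**Figure D1:**
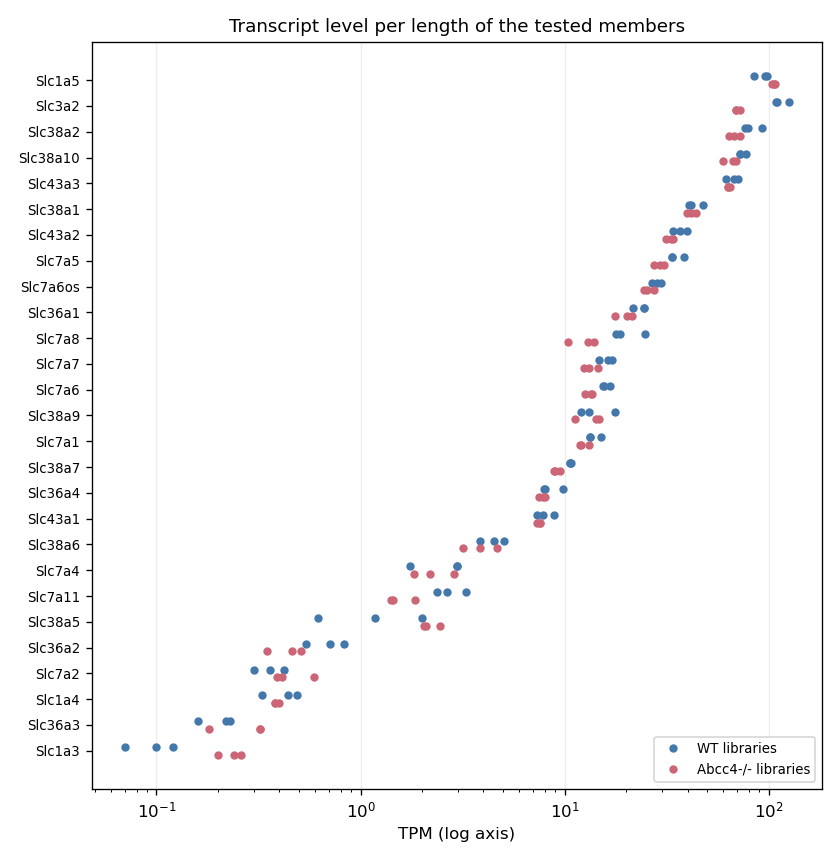
TPM of each tested member (rows, ordered by mean TPM; log axis), with 1 point per library in blue for WT and red for Abcc4-/-. Slc3a2 lies at 109 to 125 TPM in WT and 69.0 to 72.5 TPM in Abcc4-/-, while Slc1a5 lies at 84.5 to 97.8 and 104 to 107 TPM.

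Of the 43 members, 27 passed the filter on low counts. The other 16 had at most 16 counts in any library, and 5 of them (Slc1a7, Slc7a12, Slc7a15, Slc38a3 and Slc38a4) had 0 counts in all 6, where 3 counts correspond to 0.0304 to 0.0591 CPM. The glutamate carriers Slc1a1, Slc1a2 and Slc1a6, the heavy chain Slc3a1, the cationic carriers Slc7a3 and Slc7a14, and Slc7a9, Slc7a10, Slc7a13, Slc38a8 and Slc38a11 were also too low to test. Among tested members, the average log2 CPM ran from -1.61 for Slc36a3 to 8.01 for Slc38a2.

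Against this background of levels, 5 tested members differed between the genotypes. Slc3a2, Slc7a8 and Slc38a2 fell, and Slc1a5 and Slc38a5 rose, in the edgeR quasi-likelihood test at an adjusted p below 0.05 over all genes. That is 18.5% of the 27, beside 17.3% of the 16493 genes tested. Of all genes, 8.61% passed as higher and 8.68% as lower, and 2 and 3 of the 27 members did so. On log2(TPM + 1), 599 genes passed as higher and 1512 as lower, against 1420 and 1432 on counts. The CPM of the groups did not overlap for 9 members (33.3%), beside 36.8% of all genes. These were the 5 named and Slc1a3 (higher), Slc7a5, Slc7a6 and Slc43a2 (lower). The median log2 fold change of the 27 was -0.06, with 18 below 0 and 9 above it. Over all genes tested the median was 0.00091, with 8209 below 0 and 8284 above it. By family, 1 of 3 tested Slc1 genes, 1 of 1 Slc3, 1 of 9 Slc7 (Slc7a6os among the 9), 2 of 7 Slc38, 0 of 4 Slc36 and 0 of 3 Slc43 genes passed.

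**Figure D2:**
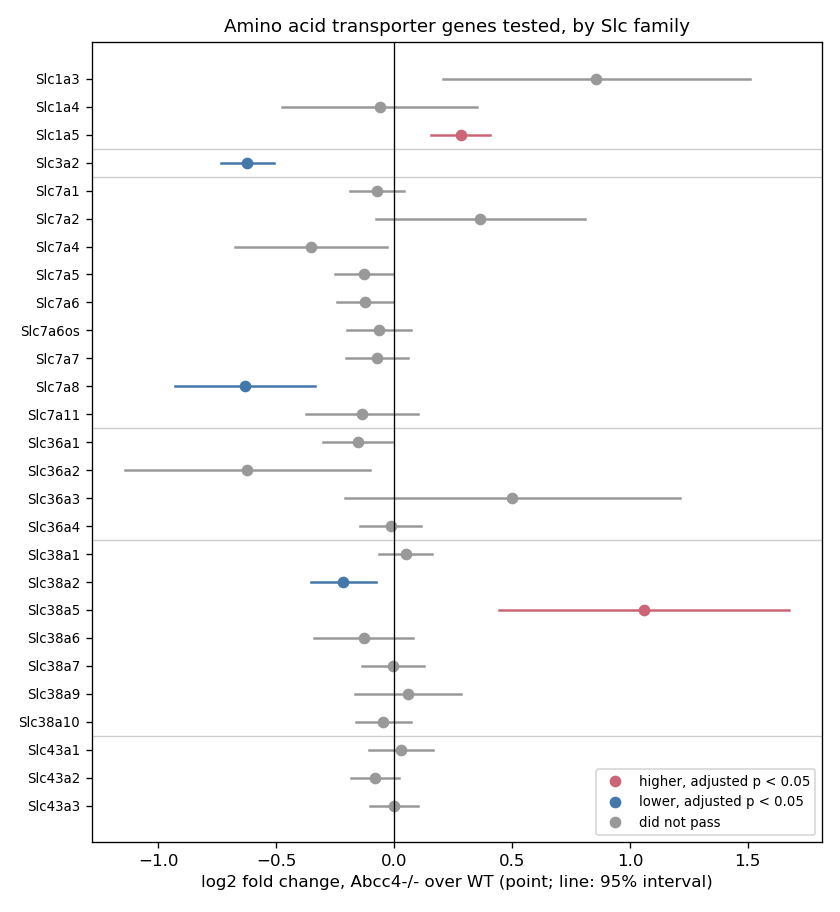
Log2 fold change of Abcc4-/- over WT (x axis) for the 27 tested members by Slc family, each point with its 95% interval from the edgeR fit; red and blue mark members that passed as higher and lower. Slc3a2 (-0.62) and Slc7a8 (-0.63) lie farthest below 0 among those that passed, and Slc38a5 (1.06) farthest above.

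The 250 bases before the start of Slc38a2, which passed, and of Slc7a11, whose window holds ATF4-type letters, are shown from the RefSeq promoter table (GRCm38.p6). In all, 32 of the 43 members matched the table, and Slc1a5 has no entry. The windows of Slc3a2, Slc7a8 and Slc38a5 reach into annotated exons of other transcripts and are described without their sequence. The windows shown are chr15:96699729-96699978 for Slc38a2 and chr3:50443614-50443863 for Slc7a11, both on the minus strand and written 5′ to 3′ toward the start. Capitals mark matches on either strand to 5 letter patterns, described after the sequences.
Slc38a2: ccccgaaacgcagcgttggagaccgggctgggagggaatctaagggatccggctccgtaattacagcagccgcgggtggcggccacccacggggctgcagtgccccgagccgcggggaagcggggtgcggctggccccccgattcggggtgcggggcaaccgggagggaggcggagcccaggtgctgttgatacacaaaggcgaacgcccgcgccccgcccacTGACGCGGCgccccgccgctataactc
Slc7a11: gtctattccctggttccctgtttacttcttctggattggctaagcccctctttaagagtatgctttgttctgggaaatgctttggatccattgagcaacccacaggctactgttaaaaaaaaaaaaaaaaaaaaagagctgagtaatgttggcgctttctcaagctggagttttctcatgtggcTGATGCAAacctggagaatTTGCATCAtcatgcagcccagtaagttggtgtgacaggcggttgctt
The patterns were the composite C/EBP and ATF element (TGATGNAA, called CARE), the cAMP response element (TGACGTCA), the AP-1 site (TGANTCA), the antioxidant response element (TGACNNNGC) and the E-box (CACGTG). The Slc7a11 window holds 2 CARE matches, 66 and 47 bases before the start and in opposite orientations. CARE occurred in 3.45% of the 32851 promoter windows of the table. Among the 20 tested members with an entry, Slc7a7 was the other one with a CARE match. The Slc38a2 window has an antioxidant element match 27 bases before the start (10.2% of all windows), and the Slc38a5 window an E-box 30 bases before it (6.02%). The Slc3a2 and Slc7a8 windows hold none of the 5 patterns. The Slc3a2 window (8713898 to 8714147) lies inside the gene, whose annotated 5′ end is at 8723369. The Slc38a5 window (8271131 to 8271380) lies almost wholly inside its gene, whose annotated 5′ end is at 8271133, and its E-box falls inside the gene. The bases before the Slc3a2 end, and all but the nearest before the Slc38a5 end, were not searched, so the result does not cover them. The cAMP response element was in 1.55% and the AP-1 site in 6.75% of all windows, and in none of these 5 windows. A match is only a run of letters, and no binding was measured.

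The heavy chain showed the smallest p among the members. Slc3a2 (ENSMUSG00000010095.13, chromosome 19, 8706882 to 8723369, minus strand, GRCm38) stood at 123, 123 and 134 CPM in WT replicates 1 to 3 and at 83.1, 81.3 and 82.5 CPM in Abcc4-/- replicates 1 to 3. The 3 Abcc4-/- libraries lay close together and below the lowest WT library. The fall was 1.54-fold (log2 fold change -0.62, SE 0.05; edgeR, adjusted p = 1.97e-05), and its call held in all 17 alternatives, with log2 fold changes from -0.70 to -0.58. Slc3a1, the heavy chain of the cystine and dibasic amino acid carrier of kidney, had 3 to 11 counts per library and was not tested.

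Of the light chains that Slc3a2 carries, Slc7a8 passed as lower on counts, and Slc7a5, Slc7a6, Slc7a7 and Slc7a11 did not pass there. Differences between light chains were not tested. Slc7a8, a carrier of neutral amino acids (ENSMUSG00000022180.7, chromosome 14, 54722209 to 54781946, minus strand), stood at 51.0, 53.6 and 66.6 CPM in WT and 31.9, 38.4 and 40.1 CPM in Abcc4-/-. Every Abcc4-/- value was below every WT value, although both groups spread more widely than for Slc3a2. The fall was 1.55-fold (log2 fold change -0.63, SE 0.12; edgeR, adjusted p = 0.0157). It did not pass when genes with very low counts were tested too (adjusted p = 0.0672).

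Slc7a5, the leucine carrier known as LAT1 and the most abundant light chain, stood at 74.6, 77.5 and 82.4 CPM in WT and 74.2, 67.9 and 72.6 CPM in Abcc4-/-. The groups were apart by a narrow margin, and the difference did not pass (log2 fold change -0.13, 95% interval -0.25 to -0.0054; edgeR, adjusted p = 0.145). Slc7a6 and Slc7a7, which exchange cationic for neutral amino acids, had log2 fold changes of -0.12 and -0.07 (edgeR, adjusted p = 0.145 and 0.448). Slc7a6 passed on both log2 TPM scales (adjusted p = 0.0423 and 0.0410) and Slc7a5 on log2(TPM + 0.1) (0.0464), where the median over all genes was -0.06 and -0.08. On centred TPM neither passed (0.102 for Slc7a6 and 0.0845 for Slc7a5). Slc7a6os, a neighbour of Slc7a6 that is no carrier, stood at 23.7, 25.8 and 26.2 CPM in WT and 23.2, 23.8 and 25.5 CPM in Abcc4-/-. Its groups overlapped (log2 fold change -0.06, adjusted p = 0.539).

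The fall of Slc3a2 can also be read as a ratio of light to heavy chain transcripts, which is no independent result because Slc3a2 is the denominator. The 5 tested light chains together gave 0.792, 0.779 and 0.794 TPM per TPM of Slc3a2 in WT and 0.969, 0.978 and 1.03 in Abcc4-/-. The Abcc4-/- mean was 1.26 times the WT mean. In counts, which need no scaling between libraries, Slc7a5 per Slc3a2 was 0.608, 0.629 and 0.614 in WT and 0.893, 0.836 and 0.879 in Abcc4-/-. The groups did not overlap in either ratio. An exact permutation test (two-sided) gave p = 0.1 for each, the smallest that 3 against 3 allows, and 0.1 after adjustment over the 4 ratios computed, which were chosen after the values were seen.

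Slc7a11, the cystine carrier xCT, gave a different picture on counts and on TPM. On counts it stood at 10.8, 9.32 and 11.6 CPM in WT and 9.17, 8.71 and 11.03 CPM in Abcc4-/-, with groups that overlapped (log2 fold change -0.14, 95% interval -0.37 to 0.10; edgeR, adjusted p = 0.434). On TPM it stood at 2.64, 2.36 and 3.27 in WT and 1.41, 1.44 and 1.84 in Abcc4-/-, with no overlap. Limma on log2(TPM + 1) gave a log2 fold change of -0.55 (adjusted p = 0.0219), where 12.8% of all genes passed, -0.78 (0.0200) on log2(TPM + 0.1), and -0.46 (0.0190) after centring each library.

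The gap lies in the counts behind each unit of TPM, which rise with the average transcript length that the authors' estimate gives a gene. Relative to the median gene of the library, Slc7a11 had 2.84, 2.72 and 2.58 CPM per TPM in WT and 4.20, 3.99 and 4.09 in Abcc4-/-. The Abcc4-/- mean was 1.51 times the WT mean, and the groups did not overlap (p = 0.1 in a two-sided exact permutation test, the minimum for this design). Only shifts upward were counted. A ratio this large or larger was found for 4 of 12582 genes with at least 1 TPM in every library (0.0318%), Slc7a11 among the 4. In the other 20 members at that level the ratio lay between 0.820 (Slc7a4) and 1.10 (Slc38a7). GENCODE lists 5 Slc7a11 transcripts on the minus strand of chromosome 3 (49892526 to 50443614, GRCm38). The protein-coding ones are 9223 and 2419 bases long, those with a retained intron 3162 and 2677 bases, and a further processed transcript 481 bases. Other annotated genes overlap Slc7a11, namely Gm37498 and Gm37692 on the same strand and Gm2345, Gm37826 and Gm37854 on the opposite one. Values per transcript were not analysed here, and the part of the overlapping genes in this gap was not tested.

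**Figure D3:**
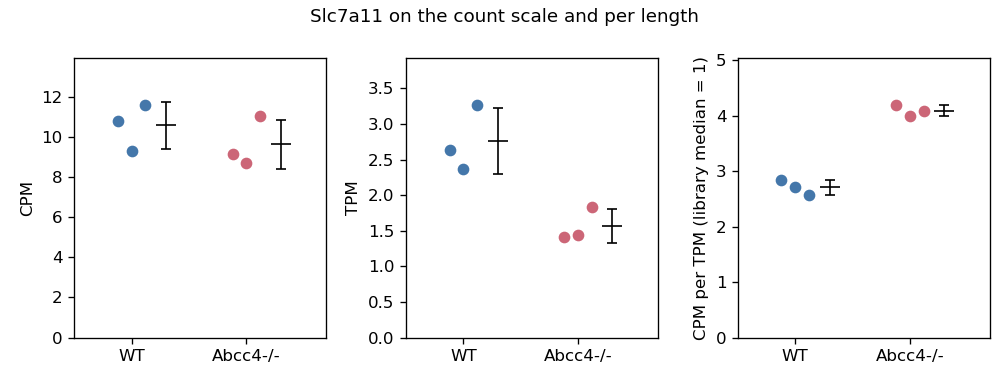
Slc7a11 in each library (points; blue WT, red Abcc4-/-; black bar and whiskers: mean and SD, n = 3) as CPM, as TPM and as CPM per TPM relative to the library median. CPM overlaps between the genotypes, TPM is lower in Abcc4-/- (1.41 to 1.84 against 2.36 to 3.27), and CPM per TPM is higher (3.99 to 4.20 against 2.58 to 2.84).

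The cationic carriers did not pass. Slc7a1, a carrier of arginine and lysine and the most abundant of the group, stood at 68.4, 67.0 and 72.3 CPM in WT and 66.3, 63.1 and 68.0 CPM in Abcc4-/-. The groups overlapped, and the 95% interval of the log2 fold change ran from -0.19 to 0.04 (edgeR, adjusted p = 0.371). Slc7a2, an arginine carrier of activated macrophages, lay at 1.63 ± 0.183 and 2.11 ± 0.587 CPM (SD, n = 3; edgeR, adjusted p = 0.249). Slc7a4, a family member of uncertain transport activity, lay at 3.28 ± 0.595 and 2.56 ± 0.159 CPM (adjusted p = 0.125), and passed as lower without WT replicate 1 (0.0486). P2rx6 overlaps Slc7a4 on the opposite strand, as Oxa1l does Slc7a7 and Gm20388 does Slc7a5. Slc7a2, Slc36a3, Slc38a9, Slc38a10 and Slc43a2 also have opposite-strand overlaps. The deposited counts are labelled stranded, and these values are uncertain only if strand was not used in counting. Besides the overlaps of Slc7a11, Gm37310 overlaps Slc1a3, Gm18883 Slc38a9 and Mir3971 Slc43a2 on the same strand, which strand cannot separate. The effect of the overlaps was not tested.

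Among the Slc1 genes, the glutamine exchanger ASCT2 rose. Slc1a5 (ENSMUSG00000001918.17, chromosome 7, 16781340 to 16798274, plus strand) stood at 141, 160.3 and 157 CPM in WT and 192, 184 and 182 CPM in Abcc4-/-. Every Abcc4-/- library was above every WT library, by 1.22-fold on average (log2 fold change 0.28, SE 0.06; edgeR, adjusted p = 0.0064). The call ended on log2(TPM + 1) and log2(TPM + 0.1) (adjusted p = 0.0821 and 0.0772) and held on centred TPM (0.0226). Its relative Slc1a4 was low in both groups, at 1.15 ± 0.226 and 1.10 ± 0.066 CPM (SD, n = 3; adjusted p = 0.869). The glial glutamate carrier gene Slc1a3 was the one tested glutamate carrier. It stood at 0.364, 0.296 and 0.202 CPM in WT and 0.453, 0.456 and 0.656 CPM in Abcc4-/-, from 11 to 53 counts a library. The groups did not overlap, and the difference did not pass (log2 fold change 0.86, SE 0.30, edgeR, adjusted p = 0.0708). It did pass on log2(TPM + 0.1) (0.0337), on centred TPM (0.0262) and with libraries thinned to equal depth (0.0460). The TPM of Slc1a3 lay near the 0.1 added, at 0.07 to 0.12 in WT and 0.20 to 0.26 in Abcc4-/-. Its mean CPM per TPM in Abcc4-/- was 0.721 of that in WT, and the bearing of this on the TPM calls was not tested.

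Of the 7 tested Slc38 genes, 1 passed as lower and 1 as higher. Slc38a2 encodes the sodium-coupled neutral amino acid carrier SNAT2 (ENSMUSG00000022462.7, chromosome 15, 96687392 to 96699730, minus strand). It stood at 259, 269 and 302 CPM in WT and 230.1, 237 and 248 CPM in Abcc4-/-. All 3 Abcc4-/- libraries were below the lowest WT library, by a small step. The fall was 1.16-fold (log2 fold change -0.21, SE 0.06; edgeR, adjusted p = 0.0379). The call ended without WT replicate 2 or 3 or Abcc4-/- replicate 1 or 2 (adjusted p = 0.0559 to 0.139) and on log2(TPM + 1) with and without centring (0.0802 and 0.0547). As a restatement of the values of these 2 members, there were 0.546, 0.597 and 0.520 counts of Slc1a5 per count of Slc38a2 in WT and 0.832, 0.778 and 0.735 in Abcc4-/- libraries.

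Slc38a5, the glutamine carrier SNAT5 (ENSMUSG00000031170.14, chromosome X, 8271133 to 8280179, plus strand), was low and rose. It stood at 1.95, 0.769 and 1.41 CPM in WT and 2.76, 2.74 and 3.16 CPM in Abcc4-/-, from 39 to 107 and 183 to 270 counts. WT replicate 2 was the lowest, and every Abcc4-/- library was above all of WT. The rise was 2.09-fold (log2 fold change 1.06, SE 0.27; edgeR, adjusted p = 0.0283). The call ended without WT replicate 3 or any Abcc4-/- replicate (adjusted p = 0.0739 to 0.0986), on each TPM scale (0.0805 to 0.124) and with libraries thinned to equal depth (0.0537). The part of the cell types whose marker sums are given above in this rise was not tested.

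**Figure D4:**
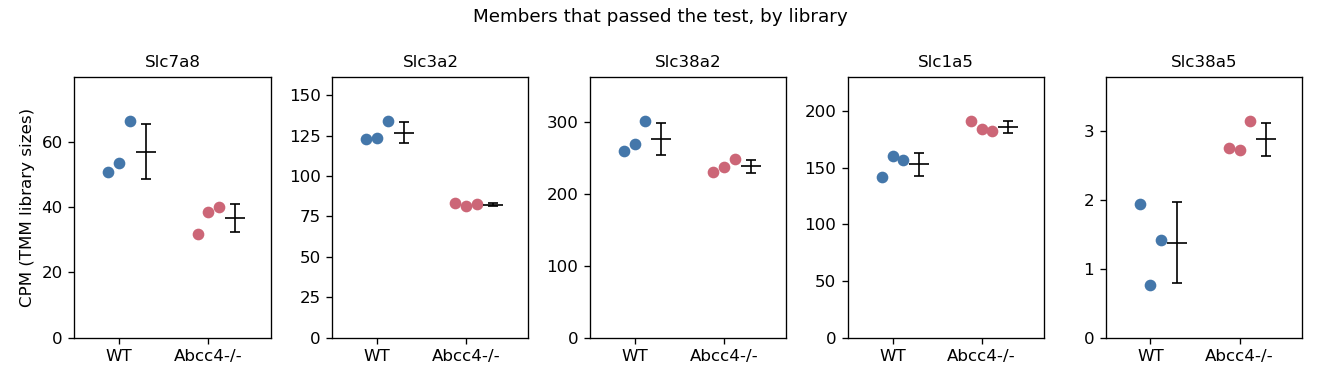
CPM of the 5 members that passed, 1 panel per gene with its own axis from 0; points are libraries (blue WT, red Abcc4-/-), black bars and whiskers the mean and SD (n = 3). The groups do not overlap in any panel; Slc3a2 lies at 123 to 134 CPM in WT and 81.3 to 83.1 CPM in Abcc4-/-.

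The other Slc38 genes did not pass. Slc38a1, a neutral amino acid carrier of proliferating cells, was abundant at 184 ± 8.13 and 190.2 ± 4.71 CPM (SD, n = 3; log2 fold change 0.05, 95% interval -0.06 to 0.16; edgeR, adjusted p = 0.567). The arginine sensor Slc38a9 lay at 37.3 ± 3.06 and 38.8 ± 5.02 CPM, and Slc38a10 at 160.3 ± 2.59 and 155 ± 8.50 CPM (adjusted p = 0.743 and 0.606). The lysosomal glutamine carrier Slc38a7 had a log2 fold change of -0.0050 (95% interval -0.14 to 0.13), and Slc38a6 one of -0.13 (-0.34 to 0.08).

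No Slc36 or Slc43 gene passed. Slc36a1, a lysosomal exporter of small neutral amino acids, stood at 88.5, 78.6 and 83.2 CPM in WT and 67.9, 77.2 and 79.6 CPM in Abcc4-/- (log2 fold change -0.16; edgeR, adjusted p = 0.143). The ranges overlapped between WT replicate 2 and Abcc4-/- replicate 3. Slc36a4 lay at 37.3 ± 2.7 and 37.0 ± 0.500 CPM (adjusted p = 0.899). Slc36a2 and Slc36a3 were low, with log2 fold changes of -0.62 and 0.50 (adjusted p = 0.0969 and 0.328). Slc36a2 passed as lower without WT replicate 3 (0.0474), and an antisense gene overlaps Slc36a3 on the opposite strand.

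Slc43a3 encodes a carrier of purine nucleobases, known to take up adenine and 6-mercaptopurine, the drug in the series title; no sample is labelled as treated with it. It stood at 91.8, 88.7 and 90.2 CPM in WT and 92.1, 88.0 and 90.7 CPM in Abcc4-/-. The values interleaved, and the 95% interval of the log2 fold change ran from -0.10 to 0.10 (edgeR, adjusted p = 0.995). The branched-chain amino acid carriers Slc43a1 (LAT3) and Slc43a2 (LAT4) did not pass either. Slc43a2 stood at 139, 133 and 137 CPM in WT and 126.3, 130.0 and 129.8 CPM in Abcc4-/-. Its groups were apart by a narrow step (log2 fold change -0.08, 95% interval -0.18 to 0.02; adjusted p = 0.261). Slc43a1 lay at 12.8 ± 0.182 and 13.1 ± 0.337 CPM (SD, n = 3; adjusted p = 0.797).

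Members that lie near each other gave these values. On chromosome 15, Slc38a1 lies 44.5 kb from Slc38a2, with log2 fold changes of 0.05 and -0.21. On chromosome 14, Slc7a7 lies 304 kb from Slc7a8 (-0.07 and -0.63), and on chromosome 11, Slc36a2 lies 6.76 kb from Slc36a3 (-0.62 and 0.50). Slc43a1 and Slc43a3, 73.0 kb apart on chromosome 2, had log2 fold changes of 0.03 and 0.00058. Slc7a6 and Slc7a6os, 2.01 kb apart on chromosome 8, had -0.12 and -0.06, and Slc36a1, 19.3 kb from Slc36a2, had -0.16. Some pairs thus share a sign and others do not. Differences between neighbours were not tested.

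Other genes of amino acid handling were read from the same test. In the list of ATF4 and the amino acid response, 5 of 28 genes fell and 2 rose (25.0% called), beside 8.68% lower, 8.61% higher and 17.3% either way over all genes tested. Across this and the next 5 lists the median log2 fold change lay between 0.0083 and 0.06, beside 0.00091 over all genes. Cebpb, a partner of ATF4, averaged 134 ± 9.86 CPM in WT and 75.9 ± 0.956 CPM in the other group (SD, n = 3), a 1.77-fold fall (edgeR, adjusted p = 7.3e-06). Atf4 itself went from 368 ± 11.9 to 222 ± 15.7 CPM, a 1.66-fold fall with an adjusted p of 2.02e-05, and the stress factor Ddit3 fell 2.09-fold (adjusted p = 7.5e-05). The others were picked after their values were seen. Ppp1r15a and Ddit4 fell 4.41-fold and 2.45-fold, and Asns, the asparagine synthetase gene, and Cebpg rose 1.44-fold and 1.19-fold (adjusted p = 0.0039 and 0.004). Cebpg lost its call on each TPM scale (0.0705 to 0.435). The list median was 0.02.

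Of 35 mTORC1 sensing genes, 4 rose and 0 fell (11.4%, beside 17.3% of all genes). Mlst8, a subunit of the kinase complex, rose 1.3-fold (48.5 ± 2.02 to 63.2 ± 1.77 CPM, edgeR, adjusted p = 0.00063), the Rag GTPase gene Rragd 1.65-fold (0.0028) and the Ragulator gene Lamtor5 1.14-fold (0.0392). The other was Sesn1 (1.14-fold, 0.0422). Leaving out any 1 of the 6 libraries ended the call for Lamtor5, and leaving out any of 4 did so for Sesn1, namely WT replicate 1 and each Abcc4-/- replicate (0.0538 to 0.178). Rragd and Sesn1 lost theirs on both uncentred TPM scales and Lamtor5 on all 3 (0.0503 to 0.184).

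Of 14 genes of arginine and ornithine use, 2 fell and 2 rose (28.6%, beside 17.3% of all genes). The polyamine genes Sat1 and Odc1 fell 1.32-fold and 1.34-fold (345 ± 9.11 to 261 ± 1.40 and 125 ± 4.26 to 93.5 ± 8.59 CPM; edgeR, adjusted p = 0.00029 and 0.0015). The arginase gene Arg2 rose 1.42-fold (0.0093). Ddah2, named after its value was seen, rose 1.27-fold (0.0309), and its call ended on each TPM scale (0.0604 to 0.173) and with WT replicate 1 or 3, or Abcc4-/- replicate 1 or 2, left out (0.0535 to 0.121).

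Of 19 genes of glutamine, glutamate and branched-chain amino acid use, 4 rose and 0 fell (21.1%, beside 17.3% of all genes). The amino acid oxidase gene Il4i1, the branched-chain aminotransferase gene Bcat1 and the aspartate aminotransferase gene Got1 rose 1.46-fold, 2.34-fold and 1.21-fold (edgeR, adjusted p = 0.0019, 0.0028 and 0.0093). The other was Ppat (1.14-fold, 0.0496), which lost its call without any library but Abcc4-/- replicate 2 (0.0913 to 0.151) and under 7 other settings (0.0502 to 0.416). Got1 lost its call on each TPM scale (0.0901 to 0.251).

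Of 18 genes of cystine, glutathione and the NRF2 response, 3 rose and 0 fell (16.7%, beside 17.3% of all genes). They were Txn1 (1.17-fold), Ggt5 (1.29-fold) and Ggt1 (2.58-fold; edgeR, adjusted p = 0.0243, 0.0264 and 0.0478). Each lost its call without at least 3 libraries (0.0512 to 0.149) and on each TPM scale (0.0520 to 0.620). These libraries were WT replicate 3 and Abcc4-/- replicate 2 for all 3 genes, with Abcc4-/- replicate 1 for Txn1, WT replicate 2 and Abcc4-/- replicate 3 for Ggt5, and WT replicates 1 and 2 for Ggt1.

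Of 23 tested amino acid carriers from other Slc families, 2 fell and 2 rose (17.4%, beside 17.3% of all genes). The neutral amino acid carrier gene Slc6a15 fell 1.88-fold (1.17 ± 0.072 to 0.619 ± 0.086 CPM; SD, n = 3; edgeR, adjusted p = 0.0081), the mitochondrial aspartate and glutamate carrier gene Slc25a13 rose 1.19-fold (0.0225) and the aromatic amino acid carrier gene Slc16a10 fell 1.13-fold (0.0248). Slc6a19, named after its value was seen, rose 2.23-fold at under 1 CPM (0.0328). With 1 library left out, calls ended as follows. Slc25a13 depended on WT replicate 2 and on Abcc4-/- replicates 1 and 2 (adjusted p = 0.0503 to 0.0804 without one of them). Slc16a10 depended on WT replicate 1 and on Abcc4-/- replicates 2 and 3 (0.0760 to 0.108). Slc6a19 depended on WT replicates 1 and 3 and on Abcc4-/- replicates 1 and 2 (0.0579 to 0.121). Slc25a13 lost it on each TPM scale (0.0766 to 0.265), Slc6a19 with DESeq2 and on both uncentred TPM scales (0.0576 to 0.0906), and Slc6a15 and Slc16a10 on centred TPM (0.0621 and 0.0697).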

How the data were processed

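RNA from 3 WT and 3 Abcc4-/- samples was sequenced as stranded, paired-end mRNA libraries, per the labels' protocols. The submitters' processing notes name STAR 2.7, RSEM 1.3.1 and the build mm10, and no source used here names an annotation release. The authors deposited expected counts per gene, not normalized, and TPM, scaled to transcript length and library total. The 92 spike-in entries, all at 0, were left out. Groups came from the genotype label and replicate numbers from the titles.

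Expected counts were rounded and fitted over all genes with edgeR 4.0.16 (R 4.3.3): TMM scaling, the default filter on low counts (16493 genes kept) and the robust quasi-likelihood test, with Benjamini-Hochberg adjustment and a threshold of 0.05. Members were read from that fit. CPM uses the TMM library sizes, SE comes from the fold change and its F statistic, and 95% intervals use the fit's degrees of freedom. CPM per TPM was divided by the library's median over tested genes with at least 1 TPM. No label ties a library to its own animal, so p-values reflect only how far these 3 libraries a group spread, technical or not. Positions are from GENCODE M21 (GRCm38), matched by versioned identifier.

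Every tested member is named, with values by library for those that passed and for the most abundant one of each role; up to 3 called genes with the smallest p are named per list. The members, lists and naming rule were chosen with earlier results of these data known. One name of the cell type lists and 1 each of the mTORC1 and other-carrier lists were not found in the table. Alternatives were other scalings and filters, DESeq2 1.42.0, a replicate block, limma 3.58.1 on log2 TPM after adding 1 or 0.1 (low genes then show too small a change), a non-robust fit and each library left out. Centred TPM and thinning to the smallest library were chosen after seeing the data.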

Additional observations from a re-analysis of the deposited data

How the results depend on the processing

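Over 17 alternatives and 54 named genes there were 914 values, of which 778 kept direction and side of the threshold, 102 lost a call, 11 gained one and 23 changed sign; none of the sign changes was in a gene that passed. Members called higher numbered 2 in the edgeR test, 0 on log2(TPM + 1), 1 on log2(TPM + 0.1) and 1 to 2 with a library left out (1 without WT replicate 3 or any Abcc4-/- replicate). Members called lower numbered 3, 6 on log2(TPM + 0.1), and 2 to 4 with a library left out. Over all genes, 1420 were called higher and 1432 lower. On log2(TPM + 1) and log2(TPM + 0.1) 599 and 602 were called higher, against 1512 and 1552 lower, and on centred TPM 1134 higher and 856 lower. With a library left out the counts were 823 to 1247 higher and 897 to 1265 lower, lowest without Abcc4-/- replicate 1 (924 higher, 897 lower) and Abcc4-/- replicate 2 (823 higher, 937 lower). The causes were not tested.

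The sign changes were in members near 0. Slc43a3 (0.00058) had log2 fold changes of -0.00079 with DESeq2 size factors, -0.00093 with DESeq2, -0.0033 with the CPM filter, -0.063 and -0.064 on the TPM scales, -0.0013 after thinning and -0.012 to 0.020 with a library left out. On log2(TPM + 1) and log2(TPM + 0.1), Slc38a1 had -0.045 and -0.046, Slc38a9 -0.070 and -0.074, and Slc43a1 -0.083 and -0.092. Slc38a7 had 0.0022 without a filter, and Slc1a4 0.055 on centred TPM. With a library left out, Slc38a7 ranged from -0.031 to 0.030, Slc38a9 from -0.016 to 0.16, Slc1a4 from -0.20 to 0.077 and Slc36a4 from -0.047 to 0.049.

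With the replicate number as a block, 1528 genes were called higher and 1629 lower, and the 5 members called were the same; Arg2, Ggt1 and Ggt5 lost their calls (adjusted p = 0.0550, 0.192 and 0.105). Same-numbered samples did not deviate together (correlations of -0.0464, -0.0261 and -0.0145), so the numbers were not taken as pairs. Depth limits the 16 untested members, which had at most 16 counts a library.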
